A study of Mus musculus with 18 samples.

Results

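Klf3 knockout (KO) and wild type (WT) bone marrow-derived macrophages were compared at 0 h, the moment at which the growth factor medium had been taken off and no stimulus had been added. These were 3 KO arrays and 3 WT arrays, 6 of the 18 arrays of the series, chosen by their titles. The cells came from male FVB/NJ mice 10 to 14 weeks old. Femoral and tibial marrow was grown for 7 to 10 days in medium with 20% conditioned medium of L929 cells, a mouse fibroblast line that secretes M-CSF, the growth factor on which macrophages depend. The cells were then washed with phosphate-buffered saline and given medium with 10% serum but no conditioned medium, in which the 0 h cells were lysed without treatment. KO and WT cells kept in that medium for 8 h with saline vehicle or with 100 ng/mL lipopolysaccharide (LPS), 3 arrays each, served to show whether a 0 h difference was also present later. KO cells are labelled only as a knockout of Klf3: the sources used here give neither the allele, nor the part of the gene removed, nor the cells in which it was removed. Whether the 3 samples of a group were taken from different animals or culture dishes is not in the labels either. The p-values therefore speak only of the spread among samples within a group, which may be technical. For each gene that spread was estimated from all 18 arrays, the vehicle and LPS arrays included.

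KLF3 belongs to the Krüppel-like zinc finger factors, which bind CACCC boxes and GC-rich sites. It is known mainly as a repressor that recruits the corepressor CtBP, and its loss can therefore release genes from repression, as described for Klf8 in mouse erythroid cells and for the galectin gene Lgals3. Macrophages at rest in M-CSF keep a low output of interferon-stimulated genes through small amounts of interferon beta. In the integrated stress response, the factor ATF4 drives genes of amino acid uptake, amino acid synthesis and tRNA charging.

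At 0 h 24 of 17097 genes differed between KO and WT cells past the threshold (limma, Benjamini-Hochberg adjusted p under 0.05 over all genes), 19 higher in KO cells (0.111% of the genes tested) and 5 lower (0.0292%). The 5 genes with the largest differences among those higher in KO cells were the integrin subunit gene Itgb7 (6.93-fold), the ficolin gene Fcna (5.58-fold), the Rap1 regulator gene Rap1gap2 (5.53-fold), the paired immunoglobulin-like receptor gene Pira1 (4.58-fold) and the adhesion receptor gene Adgre5 (3.57-fold). The 5 genes lower in KO cells were the integrin subunit gene Itgb3, the chemokine gene Ccl5, the inhibitory Fc receptor gene Fcgr2b, the mitochondrial carrier gene Slc25a33 and the cadherin-related gene Cdhr3. Besides these single genes, all 25 measured interferon-stimulated genes read lower in KO cells, with a median log2 difference of -0.67 and none past the threshold. Genes of the integrated stress response and of amino acid supply also read lower, with none past the threshold here and with some, such as Slc7a5, past it under other processing.

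Promoter sequences are shown for 2 genes higher in KO cells, Itgb7 and Klf9, because they hold the box that KLF factors bind, and for 1 leading member of each of the groups that read lower, Ifit1 and Asns. Each window runs from 250 bases before to 50 bases after the annotated start, written 5′ to 3′ on the gene's own strand, from RefSeq on GRCm38.p6. The Itgb7 window lies at chr15:102231886-102232185 on the minus strand, and capitals mark CACCC on either strand. The Klf9 window lies at chr19:23140976-23141275 on the plus strand with the same marking.
Itgb7: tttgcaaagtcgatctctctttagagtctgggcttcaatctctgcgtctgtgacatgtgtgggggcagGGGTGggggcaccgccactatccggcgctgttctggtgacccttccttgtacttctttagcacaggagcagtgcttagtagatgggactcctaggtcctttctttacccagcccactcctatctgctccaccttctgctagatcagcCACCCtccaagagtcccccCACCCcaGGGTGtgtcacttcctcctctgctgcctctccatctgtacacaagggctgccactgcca
Klf9: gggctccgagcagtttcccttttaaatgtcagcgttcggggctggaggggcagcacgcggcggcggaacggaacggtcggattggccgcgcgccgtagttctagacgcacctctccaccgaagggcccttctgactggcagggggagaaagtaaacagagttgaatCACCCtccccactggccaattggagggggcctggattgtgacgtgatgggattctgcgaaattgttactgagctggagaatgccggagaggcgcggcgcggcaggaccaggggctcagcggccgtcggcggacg
The Ifit1 window lies at chr19:34640639-34640938 on the plus strand, and capitals mark the interferon-stimulated response element, searched as GAAA, any 2 bases and GAAA on either strand. The Asns window lies at chr6:7693160-7693459 on the minus strand, and capitals mark the C/EBP-ATF response element (CARE), searched as TGATGNAA on either strand.
Ifit1: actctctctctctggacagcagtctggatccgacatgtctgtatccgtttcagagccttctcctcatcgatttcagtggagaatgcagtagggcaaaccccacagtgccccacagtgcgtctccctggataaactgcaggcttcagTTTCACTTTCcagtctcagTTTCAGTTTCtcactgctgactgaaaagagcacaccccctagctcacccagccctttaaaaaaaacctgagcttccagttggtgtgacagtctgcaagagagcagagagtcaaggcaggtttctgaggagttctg
Asns: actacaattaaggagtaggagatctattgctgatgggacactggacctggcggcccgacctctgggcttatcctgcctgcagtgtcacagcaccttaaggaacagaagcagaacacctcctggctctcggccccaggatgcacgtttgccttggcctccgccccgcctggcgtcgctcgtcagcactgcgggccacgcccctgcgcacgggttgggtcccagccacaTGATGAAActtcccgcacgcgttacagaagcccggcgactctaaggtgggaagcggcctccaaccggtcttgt

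CACCC occurred in 21 of 27 promoter windows (77.8%) of the genes higher in KO cells that had a window, 15 of 19 genes. It occurred in 1 of 3 windows of the genes lower in KO cells, and in 10699 of 16953 windows (63.1%) of all measured genes. Among groups that read lower, it occurred in 18 of 23 windows (78.3%) of the interferon-stimulated genes. It occurred in 10 of 19 (52.6%) of the stress response genes and 10 of 15 (66.7%) of the amino acid transporter and enzyme genes. The box is thus common among all promoters, and the Itgb7 window held 4 of them and the Klf9 window 1. The window of Fcgr2b, a gene lower in KO cells, held 2, and that of Klf3 itself held 5. The interferon element occurred in 10 of 23 windows (43.5%) of the interferon-stimulated genes, against 3% of all windows. CARE occurred in 5 of 19 windows (26.3%) of the unfolded protein and integrated stress response genes, against 2.7% of all windows. Of the amino acid transporter and enzyme genes, 2 of 15 windows (13.3%) held it. A match in these letters is a description and not a binding site.

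The targeted gene was read by 6 probe sets. Probe set 1421604_PM_a_at had log2 intensities of 2.94, 4.12 and 4.07 in KO arrays, against 7.71, 7.52 and 8.12 in WT arrays. In KO arrays it lay near the nonspecific level of the array, taken as the 95th percentile of 23 control probe sets without a target (3.95 to 4.23 in the 6 arrays), and in WT arrays far above it. Its difference was -4.08 ± 0.40 (log2, standard error; adjusted p = 0.000397 over every probe set, of which 0.0777% passed, 0.0577% higher and 0.02% lower in KO cells). Probe set 1429360_PM_at was also lower in KO cells, at -1.86 ± 0.23 (adjusted p = 0.00509). The probe set that stands for Klf3 among the 17097 genes, 1454666_PM_at, had 7.21, 7.45 and 7.41 in KO arrays, against 8.59, 8.20 and 8.83 in WT arrays. Its groups did not overlap, but its difference of -1.18 ± 0.29 was not past the threshold (adjusted p = 0.185 over genes). Probe set 1431630_PM_a_at read 1.51 ± 0.32 higher in KO arrays, with no overlap and not past the threshold (adjusted p = 0.134), though it passed without WT array 2 (1.96, adjusted p = 0.0114). With all arrays it passed when values were raised to the nonspecific level (limma, adjusted p = 0.0302). The part of the transcript that each probe set reads is not given in the files, so a remaining signal in KO cells cannot be assigned to a part of the gene.

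**Figure D1:**
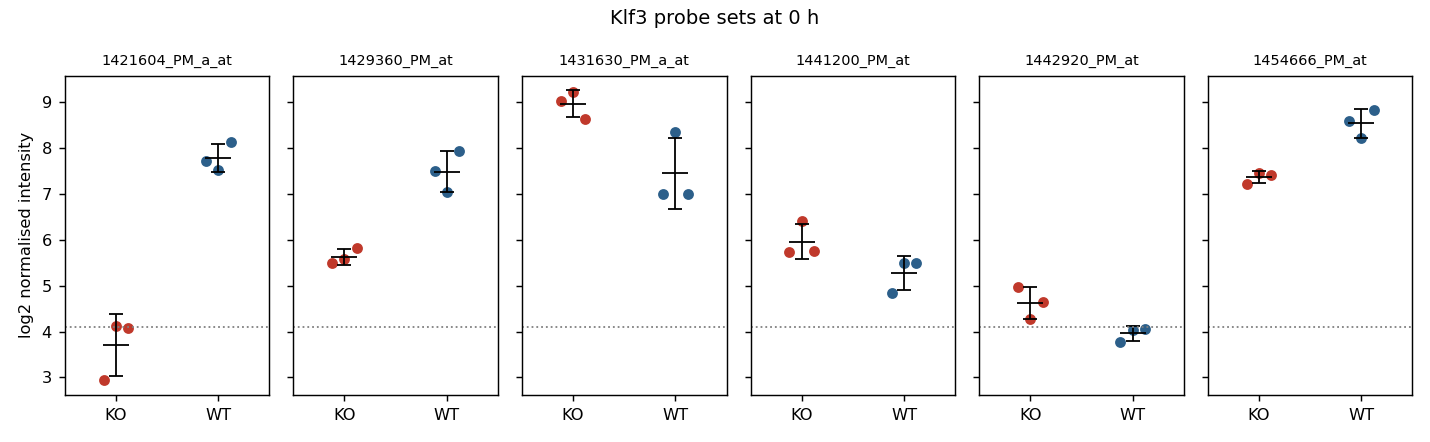
Log2 normalised intensity of the 6 Klf3 probe sets in each array at 0 h, KO left and WT right. Points are arrays, bars the mean ± SD (n = 3), and the dotted line the mean nonspecific level. Probe set 1421604_PM_a_at falls to that level in KO arrays and 3 probe sets read higher in KO than in WT arrays.

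Quality values of the 6 arrays were close. The share of genes above the nonspecific level ran from 54.8% to 57.0%, and the upper quartile of deposited intensity was 138, 114 and 139 in KO arrays and 142, 167 and 124 in WT arrays. The 5′ minus 3′ signal of the Gapdh control, a measure of RNA integrity, was 0.148, 0.125 and 0.00419 in KO arrays and 0.156, 0.114 and 0.147 in WT arrays (log2). KO array 3 stood lowest in it. The first principal component of the 6 arrays held 31.8% of the variance and separated KO arrays (8.91 to 18.8) from WT arrays (-25.8 to -6.53), WT array 1 lying farthest out. Plate row A held KO array 1 and WT arrays 1 and 2, and row B held KO arrays 2 and 3 and WT array 3. All 24 genes past the threshold had the same direction in both rows and in each of the 3 plate columns, which held 1 KO and 1 WT array each. Since the groups of all 24 did not overlap, that direction was fixed in advance and tells nothing of plate position. With row as a block in a fit on the 6 arrays, 12 genes were higher and 1 lower in KO cells, and with column as a block in the fit on 18 arrays 17 and 4. The number of arrays limits the precision, and single arrays moved the counts. Without WT array 1, 5 genes were higher and 0 lower in KO cells (limma; 380 higher and 383 lower at an unadjusted p under 0.05). Without WT array 2 the counts were 19 and 6, and without WT array 3 they were 14 and 12. Without KO array 1 they were 7 and 3, without KO array 2 they were 6 and 1, and without KO array 3 also 6 and 1. Only Mmp8, Pgap4, Rap1gap2, Tekt2 and Trim2 passed in all 6 of these fits, and Ccl5 passed in none. Fcgr2b passed in 5 of them, Krt80 in 4, Itgb3 in 3, Itgb7 and Fcna in 2 each, and Pira1, Gm14548, Adgre5, Ceacam1, Klf9, Cd109 and Ryr1 in 1 each. A fit on only the 6 arrays of 0 h called 17 higher and 4 lower, of which 12 were among the 24.

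The defining macrophage genes were bright in both groups. Csf1r, the M-CSF receptor gene, had log2 intensities of 11.10 to 11.30 in KO arrays and 11.19 to 11.28 in WT arrays, and Adgre1, a marker gene of mature mouse macrophages, had 11.10 to 11.41 and 11.18 to 11.36. The lysosomal glycoprotein gene Cd68 and the lysozyme gene Lyz2 differed by -0.05 and 0.06. Markers of other cells were mostly dim: 12 of 14 T and NK cell markers, 12 of 12 mast cell and basophil markers, 7 of 7 eosinophil markers, 14 of 16 stromal markers 10 of 13 neutrophil markers, 7 of 10 B cell markers, 8 of 14 erythroid and megakaryocyte markers and 5 of 10 dendritic cell markers lay at or under the nonspecific level in all 6 arrays. Among the defining ones Cd3d, Cd79a, S100a8, S100a9, Cpa3, Col1a1, Col3a1, Flt3 and Zbtb46 did so. Cd3e was above it in all arrays but KO array 1, at 4.19 to 5.10 in KO arrays and 4.27 to 4.71 in WT arrays. Summed over the list, linear normalised intensity of T and NK markers was 130 to 146 in KO arrays and 126 to 138 in WT arrays. For neutrophil markers it was 353 to 528 and 306 to 342, a list that holds Mmp8, and for dendritic cell markers 882 to 1353 and 819 to 1128. Erythroid and megakaryocyte markers summed to 4207 to 5353 in KO arrays and 3440 to 5636 in WT arrays. The part of these in any result was not tested. In bulk samples, fewer cells of a type and less RNA per cell cannot be told apart.

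An integrin gene passed in each direction. Itgb7 encodes integrin beta 7, which pairs with alpha 4 or alpha E and is known as the gut-homing integrin of lymphocytes. It had log2 intensities of 9.86, 9.84 and 9.87 in KO arrays, against 6.44, 7.51 and 7.23 in WT arrays. The KO arrays lay together well above the highest WT array, and the WT arrays were more widely spread. The difference was 2.79 ± 0.44 (adjusted p = 0.0173). Its alpha partners did not pass: Itga4 differed by 0.38 ± 0.28 (adjusted p = 0.999), and Itgae lay at or under the nonspecific level in all 6 arrays. Itgb3 encodes integrin beta 3, a vitronectin receptor subunit of osteoclasts, platelets and macrophages. It had 3.34, 3.35 and 3.11 in KO arrays, none of them above the nonspecific level, against 5.65, 5.35 and 4.39 in WT arrays. WT array 3 lay closest to the KO arrays. The KO signal was at least 2.08-fold lower against that level, and -1.86 ± 0.27 as fitted (adjusted p = 0.0105). With values raised to the level it was -1.05 and no longer past the threshold (adjusted p = 0.0717). A second Itgb3 probe set differed by -0.55 (adjusted p = 0.829). Its alpha partner gene Itgav read -0.35 ± 0.18 (adjusted p = 0.885). Of 19 leukocyte integrin and adhesion genes these 2 alone passed, 1 in each direction, and the list's median was 0.04. Of 10 osteoclast markers Itgb3 was the only 1 past the threshold. The acid phosphatase gene Acp5 and the cathepsin gene Ctsk read 0.72 and 0.71 higher in KO cells (adjusted p = 0.378 and 0.675).

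Receptors of the immunoglobulin superfamily formed the second group. Pira1 encodes an activating paired immunoglobulin-like receptor and Pirb its inhibitory counterpart, which binds MHC class I. Pira1 had log2 intensities of 10.11, 10.37 and 10.27 in KO arrays, against 7.79, 8.51 and 7.86 in WT arrays. All KO arrays were higher by more than 1 log2 unit, and the difference was 2.20 ± 0.35 (adjusted p = 0.0173). Pirb was bright in both groups, at 11.01, 11.30 and 11.21 in KO arrays, against 10.39, 10.48 and 10.54 in WT arrays. That smaller difference of 0.70 ± 0.12 also passed (adjusted p = 0.0214). The gene model Gm14548 of the same region differed by 1.64 ± 0.26 (adjusted p = 0.0175). These genes are near-identical copies, so a probe set may read more than 1 of them, and which copy changed is uncertain. Of 8 measured paired-type and CD300 receptor genes, a list compiled after the leading values had been seen, 3 rose and 0 fell (0.111% and 0.0292% of all genes did), and the list was built around these 3. Cd300a read 0.61 ± 0.26 higher (adjusted p = 0.749) and the inhibitory receptor gene Lilrb4a -0.11 ± 0.10 (adjusted p = 0.999).

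Ceacam1 encodes an adhesion molecule with inhibitory cytoplasmic motifs. It had 9.89, 9.82 and 9.95 in KO arrays, against 8.68, 8.82 and 8.48 in WT arrays. The groups stood clearly apart, with a difference of 1.23 ± 0.21 (adjusted p = 0.0219). All 8 of its probe sets read higher in KO arrays, by 0.51 to 1.34. The paralogous Ceacam2 read 0.63 ± 0.17 higher without passing (adjusted p = 0.268), and whether a probe set reads both genes is not given in the files. Fcgr2b encodes the inhibitory Fc gamma receptor of macrophages and B cells. Its log2 intensities were 10.71, 10.96 and 10.85 in KO arrays, against 11.82, 11.96 and 11.51 in WT arrays. Every KO array was lower than every WT array, and the difference was -0.92 ± 0.13 (adjusted p = 0.00584). All 4 Fcgr2b probe sets read lower in KO arrays, by 0.90 to 0.99 in size, and all passed over every probe set. Of 16 Fc and scavenger receptor genes Fcgr2b alone passed. The scavenger receptor gene Cd36 read 0.87 ± 0.37 (adjusted p = 0.735) and the high-affinity Fc receptor gene Fcgr1 -0.41 ± 0.28 (adjusted p = 0.999).

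Adgre5 encodes CD97, an adhesion G protein-coupled receptor of leukocytes. It had 9.03, 9.44 and 9.10 in KO arrays, against 7.35, 7.65 and 7.07 in WT arrays. No array of one group came near the other, and the difference was 1.83 ± 0.31 (adjusted p = 0.0214). Fcna encodes ficolin A, a secreted lectin of the complement system made by macrophages. It had 9.52, 9.99 and 9.81 in KO arrays, against 6.84, 7.56 and 7.48 in WT arrays. This was the second largest difference of all genes tested that passed, at 2.48 ± 0.41 (adjusted p = 0.0187). Of 16 complement components and receptors in a list that does not hold Fcna, 0 passed (1 had an unadjusted p under 0.05). Cd109, a membrane-anchored co-receptor that restrains TGF-beta signalling, rose by 1.53 ± 0.26 (adjusted p = 0.0226). Ccl5 encodes the T cell and monocyte attractant RANTES. It had 4.21, 3.88 and 3.39 in KO arrays, all at or under the nonspecific level, against 5.63, 5.21 and 5.31 in WT arrays. KO cells read at least 2.47-fold lower against that level, and -1.56 ± 0.29 as fitted (adjusted p = 0.042). It was the only 1 of 21 chemokine genes past the threshold, and the list's median was -0.06.

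Enzymes, intracellular proteins and regulators made up the rest. Rap1gap2, a GTPase-activating protein for the adhesion regulator Rap1, had 6.91, 6.95 and 6.75 in KO arrays, against 4.55, 4.48 and 4.17 in WT arrays. The WT arrays were just above the nonspecific level, and the difference was 2.47 ± 0.34 (adjusted p = 0.00584). Mmp8, the neutrophil collagenase gene, had 7.35, 8.16 and 7.64 in KO arrays, against 6.53, 6.22 and 6.47 in WT arrays. It rose by 1.31 ± 0.18 (adjusted p = 0.00584), while the neutrophil genes S100a8 and S100a9 lay at or under the nonspecific level in all 6 arrays. Ryr1, a calcium release channel gene, rose by 1.73 ± 0.31 (adjusted p = 0.0344), while a second, dim Ryr1 probe set read -0.35. Akr1b8, an aldo-keto reductase gene, rose by 0.76 ± 0.12, Apbb1, which encodes an adaptor of the amyloid precursor protein, by 1.21 ± 0.19, and the keratin gene Krt80 by 1.06 ± 0.16 (adjusted p = 0.0167, 0.0175 and 0.0136). The long noncoding RNA BC064078 rose by 0.67 ± 0.12 (adjusted p = 0.0261). Slc25a33, a mitochondrial carrier of pyrimidine nucleotides, fell by 0.94 on the log2 scale (adjusted p = 0.018), and Cdhr3 by 0.95 (adjusted p = 0.0422).

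Some of these calls sat at the bottom of the intensity range. Trim2, which encodes a ubiquitin ligase, had 4.19, 4.43 and 4.30 in KO arrays, against 2.47, 2.71 and 2.61 in WT arrays. WT arrays lay under the nonspecific level and KO arrays close to it, so the bound was at least 1.13-fold higher, against 1.71 ± 0.16 log2 as fitted (adjusted p = 0.000259). With values raised to the level, the difference was 0.19 and no longer past the threshold (adjusted p = 0.929). Tekt2, a tektin gene of cilia and flagella, was at least 1.83-fold higher, with 0.87 after values were raised to the level (adjusted p = 0.0585). Pgap4, which encodes an enzyme of GPI anchor side chains, was at least 1.67-fold higher and still passed then (0.74, adjusted p = 0.0426).

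**Figure D2:**
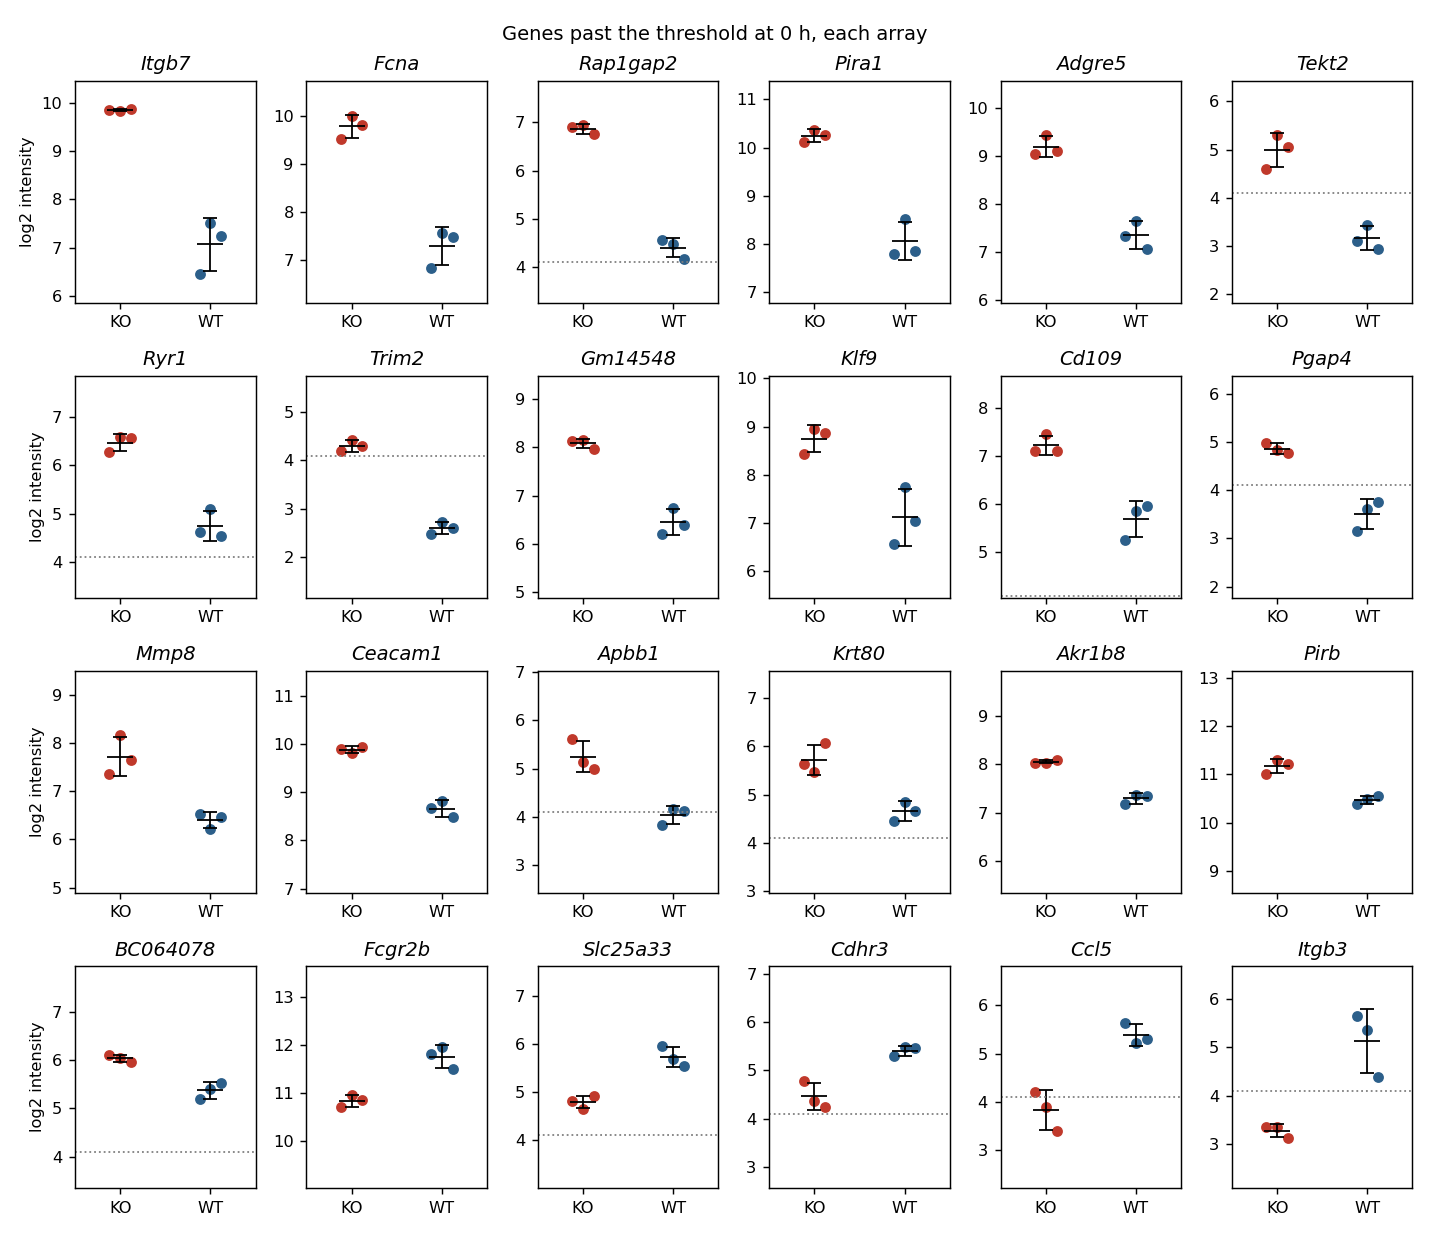
Log2 normalised intensity in each array at 0 h of the 24 genes past the threshold, KO left and WT right. Points are arrays, bars the mean ± SD (n = 3), each vertical axis spans the same log2 range, and the dotted line is the mean nonspecific level. No gene has overlapping groups, and the WT arrays of Trim2, Tekt2 and Pgap4 and the KO arrays of Itgb3 lie under the line.

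Among the Krüppel-like and SP factors, which bind the same boxes as KLF3, Klf9 alone passed. Klf9 encodes a repressor known as a glucocorticoid-induced gene. It had 8.42, 8.94 and 8.88 in KO arrays, against 6.55, 7.75 and 7.04 in WT arrays. The lowest KO array exceeded the highest WT array by less than 1 log2 unit, and the difference was 1.63 ± 0.29 (adjusted p = 0.0282). Of its 5 probe sets 4 read higher, by 1.19 to 1.93, and a dim one read -0.36. Klf9 was past the threshold in 9 of 21 alternatives. It was not past it with the 6 arrays of 0 h alone (adjusted p = 0.116), the mean of its probe sets (0.0671), deposited values (0.0853), a plate column block (0.0701) or a plate row block (0.262). Of 20 measured family members 15 had a positive and 5 a negative difference, with a median of 0.09. Klf10, a TGF-beta-induced factor gene, read 0.43 ± 0.25 and Klf11 0.24 ± 0.14 (adjusted p = 0.945 each). Klf15 lay under the nonspecific level in all 6 arrays, at -0.44. Klf2, Klf4 and Klf6, which are known regulators of macrophage activation, differed by -0.13, -0.01 and 0.05. Klf1 and Klf12 lay at or under the level in all arrays. The SP genes Sp1, Sp3, Sp4 and Sp7 read 0.10, 0.09, 0.13 and 0.30.

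Known KLF3 partners and targets that were measured did not pass. The targets measured were C1qtnf12 and Lgals3. Klf8, the target described in erythroid cells, was not among the measured genes and was therefore not tested. Of 12 cofactor genes 0 passed (limma, and 0 had an unadjusted p under 0.05), the corepressor gene Ctbp2 being at 0.07 ± 0.13 and the demethylase gene Kdm1a at -0.17 ± 0.10. C1qtnf12, an adipokine gene described as a KLF3 target in mouse adipose tissue, had 9.47, 9.42 and 9.54 in KO arrays, against 8.95, 9.03 and 9.07 in WT arrays. The groups did not overlap, but the difference of 0.46 ± 0.12 was not past the threshold (adjusted p = 0.258). Lgals3, the galectin-3 gene, differed by 0.00 ± 0.10. Of 7 galectin genes 0 passed (0 at an unadjusted p under 0.05), and Lgals9 read lowest at -0.36 ± 0.27. The 5 measured genes on either side of Klf3 also did not pass, the largest difference among them being that of Rell1 at 0.48 ± 0.19 (adjusted p = 0.69). Of these, Tlr1 and Tlr6, which encode receptors for bacterial lipopeptides, read 0.22 and -0.25.

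The interferon-stimulated genes read lower in KO cells without exception. Ifit1, which encodes an RNA-binding antiviral protein, had 5.36, 4.76 and 4.77 in KO arrays, against 7.07, 6.02 and 6.85 in WT arrays. Each KO array was lower than each WT array, and the difference of -1.68 ± 0.33 missed the threshold (adjusted p = 0.0637), which it passed without WT array 2 (-2.0, adjusted p = 0.0338). It also passed when values under the nonspecific level were set to it (0.0205), when arrays were only shifted to 1 median (0.0245) and without normalisation (0.0257). Rsad2, the gene of the antiviral enzyme viperin, had 7.67, 7.42 and 7.08 in KO arrays, against 9.10, 8.38 and 8.95 in WT arrays. That gap was of similar size, at -1.42 ± 0.32 (adjusted p = 0.125). Ifit2 had the largest difference, -1.86 ± 0.45, and Ifit3, Usp18, Oasl2 and Mx1 read -1.62, -1.47, -1.36 and -1.22 (adjusted p from 0.125 to 0.231 over these and Ifit2). The smallest was that of Irf9, a subunit of the interferon-activated ISGF3 complex, at -0.20. Of 25 measured genes 0 passed, 20 were lower at an unadjusted p under 0.05 (3.16% of all genes were, and 3.05% were higher), and 22 were lower with no overlap between groups (7.02% of all genes were, and 7.55% were higher). Ifit2 passed in the fit on only the 6 arrays (adjusted p = 0.0454), and Ifit3 when these alone were normalised (0.0485). With array weights Ifit1, Ifit2, Ifit3, Usp18, Rsad2, Oasl2 and Mx1 all passed (adjusted p from 0.0161 to 0.0464). Over all 17097 genes the median was 0.00 and 8726 were positive.

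In single arrays, the list's median distance from the mean of the WT arrays was -0.64, -0.68 and -0.79 in KO arrays 1, 2 and 3, and 0.29, -0.19 and -0.10 in WT arrays 1, 2 and 3. WT array 1 was thus the highest for these genes. The list's median stayed between -0.77 and -0.55 with each array left out in turn, and was least negative without WT array 1. Within plate row A it was -0.63 and within row B -0.65, with all 25 genes negative in both. In plate columns 5, 7 and 9, each 1 KO array against 1 WT array, it was -0.94, -0.52 and -0.82, with 25, 23 and 25 genes negative. For the 22 genes without overlap between groups, the sign in every row and column was fixed in advance. Their counts therefore tell nothing of plate position. Other interferon-related genes followed in part: the interferon-induced chemokine gene Cxcl10 read -1.30 ± 0.44, not above the nonspecific level in KO arrays and with overlapping groups (adjusted p = 0.493). Of 11 MHC class I and antigen processing genes 10 were negative, with a median of -0.16 and 0 past the threshold (0 at an unadjusted p under 0.05). Pro-inflammatory cytokines (15 genes), NF-kB subunits and inhibitors (16) and Toll-like receptor signalling genes (20) had medians of 0.01, 0.02 and 0.07. Of the cytokine genes, 10 lay at or under the nonspecific level in all 6 arrays, and the other 5 had a median of 0.12. No interferon-stimulated gene of the list did so.

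After vehicle, the median KO minus WT difference of the 25 interferon-stimulated genes was -0.10, with 16 of 25 negative, and after LPS it was 0.02, with 12 negative. None of these genes passed at either time. The 0 h difference minus the later one had a median of -0.59 for vehicle and -0.69 for LPS, and it passed for 0 of 25 genes in either case. Over all genes that difference passed for 0 against vehicle (limma; 628 genes, 3.67%, at an unadjusted p under 0.05) and for 1.92% against LPS. Usp18 came closest, at -1.91 for LPS (adjusted p = 0.0502).

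Genes of amino acid supply and tRNA charging read lower in KO cells as well, from lists compiled after the leading values had been seen. Slc7a5, the large neutral amino acid transporter gene, had 6.0, 5.56 and 5.65 in KO arrays, against 8.00, 7.58 and 6.73 in WT arrays. The highest KO array lay below the lowest WT array, WT array 3, and the difference of -1.70 ± 0.32 missed the threshold (adjusted p = 0.0544). Asns, which encodes asparagine synthetase, had 7.96, 7.68 and 7.64 in KO arrays, against 9.69, 9.74 and 8.28 in WT arrays. WT array 3 again lay between the other WT arrays and the KO arrays, and the difference was -1.48 ± 0.43 (adjusted p = 0.327). The serine synthesis gene Phgdh and the mitochondrial one-carbon gene Shmt2 read -1.33 and -0.96 (adjusted p = 0.223 and 0.308). All 15 measured genes of this list were negative, 10 with no overlap, and 0 passed (8 at an unadjusted p under 0.05), beside 7.02% of all genes lower with no overlap and 3.16% lower at that p. Of 17 cytosolic aminoacyl-tRNA synthetase genes 15 were negative, 8 with no overlap, and 0 passed (10 lower at an unadjusted p under 0.05). Mars1, Aars and Gars, which charge tRNAs with methionine, alanine and glycine, read -0.83, -0.84 and -0.67 (adjusted p = 0.0566, 0.111 and 0.175). Without WT array 3, the lowest WT array for these genes, 4 of them passed, namely Slc7a5 at -2.05, Mars1 at -1.04, Aars at -1.08 and Gars at -0.88 (adjusted p = 0.0203, 0.00886, 0.0187 and 0.0264). With all arrays, Slc7a5 passed in 8 alternatives, among them genes above the nonspecific level (adjusted p = 0.0441). It also passed when every gene was read by the mean of its probe sets (0.0438), which left its own difference at -1.70. Mars1 passed in 5, among them genes above that level (0.0372). With array weights Phgdh, Shmt2 and Aars passed as well (0.0332, 0.0231 and 0.0328).

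Stress response genes with ATF4 at their centre had the same direction. Of 19 unfolded protein and integrated stress response genes 18 were negative, 8 with no overlap, with a median of -0.24 and 0 past the threshold (7 lower at an unadjusted p under 0.05). Over all genes 7.02% were lower with no overlap and 3.16% at that p. Atf4 itself had 10.83, 10.84 and 10.96 in KO arrays, against 11.52, 11.45 and 11.10 in WT arrays. Its difference was small but without overlap, at -0.48 ± 0.13 (adjusted p = 0.273). Chac1, a glutathione-degrading enzyme gene induced through ATF4, read -1.77 ± 0.50 and Ppp1r15a, the gene of a phosphatase subunit that ends the response, -0.91 ± 0.21 (adjusted p = 0.308 and 0.148). Chac1 passed without WT array 3, at -2.49 (adjusted p = 0.0264). Of other members, Hspa5, the main endoplasmic reticulum chaperone gene, read -0.24 ± 0.18, close to the list's median, and Xbp1 read -0.01 ± 0.11. The medians of the stress list, the amino acid list and the synthetase list ran from -0.33 to -0.25, from -0.58 to -0.32 and from -0.49 to -0.31 with each array left out in turn. Within plate row A they were -0.38, -0.51 and -0.46, and within row B -0.18, -0.32 and -0.22.

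These lists stood elsewhere after 8 h. The medians of the stress, amino acid and synthetase lists were 0.08, 0.05 and -0.01 after vehicle, with no member past the threshold. After LPS they were 0.43, 0.35 and 0.09, with 6, 3 and 0 members higher in KO cells (2.82% of all genes were). The 0 h difference was lower than that after LPS past the threshold for 3 stress genes, 4 amino acid genes and 0 synthetase genes (0.965% of all genes were). For Ppp1r15a the difference between the effects was -1.99 (adjusted p = 0.00261), with an effect of 1.08 after LPS, and for Slc7a5 it was -1.88 (adjusted p = 0.0469), with 0.18 after LPS. The 0 h difference is a term of this contrast, and the amino acid and synthetase lists were compiled after the leading values had been seen. Nothing is therefore read from these counts and p-values.

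**Figure D3:**
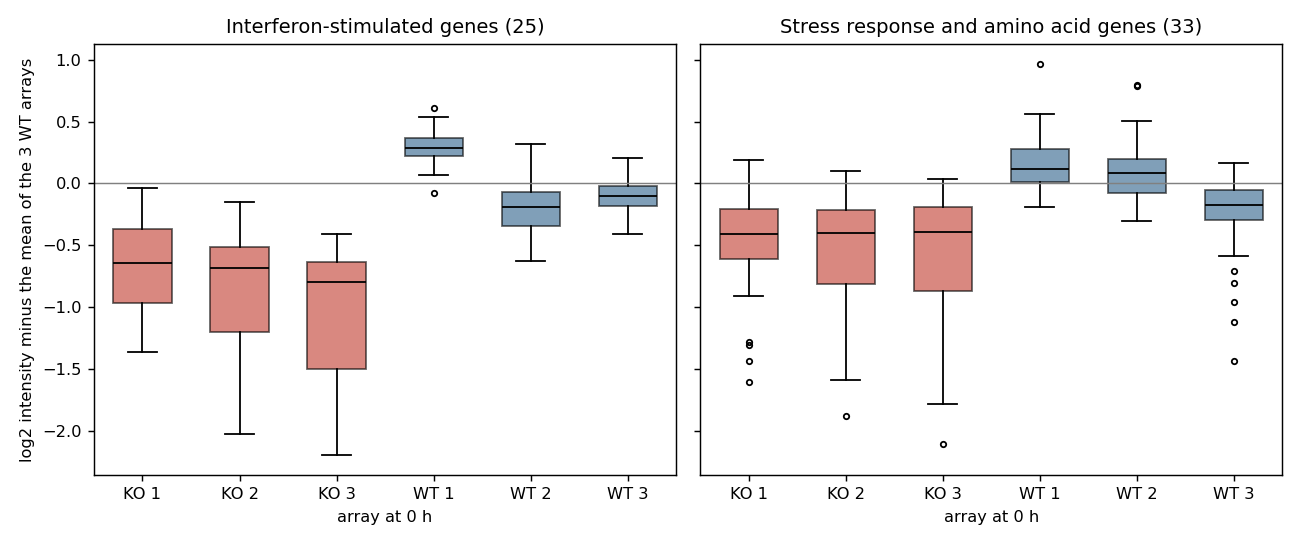
Log2 intensity minus the mean of the 3 WT arrays, for the 25 interferon-stimulated genes (left) and the 33 stress response and amino acid genes (right), in each 0 h array with KO arrays first. Boxes span the quartiles with the median, whiskers reach 1.5 times the quartile range, and circles are genes beyond. All 3 KO medians lie below all 3 WT medians in both panels, and WT array 3 has the lowest WT median on the right.

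Several single genes of macrophage state had large differences that did not pass here, though some did under other processing. Ccr2, the receptor gene of the monocyte attractant CCL2, had 8.87, 9.31 and 9.0 in KO arrays, against 5.48, 7.14 and 6.56 in WT arrays. The KO arrays were all higher, but the WT arrays spread over more than 1 log2 unit, and 2.67 ± 0.62 was not past the threshold (adjusted p = 0.145). It passed with values raised to the nonspecific level (0.0433). The other inflammatory monocyte genes did not share that size, with a median of 0.14 over 12 genes. Cd80, a co-stimulatory ligand gene, read 1.00 ± 0.20 higher in KO cells (adjusted p = 0.0816), and passed with values so raised (0.00855). The apolipoprotein gene Apoe read -0.84 ± 0.28 (adjusted p = 0.472), and Il1rn, the gene of the interleukin-1 receptor antagonist, -0.98 ± 0.25 (adjusted p = 0.221). The cell cycle inhibitor genes Cdkn2b and Cdkn2a read -1.40 ± 0.41 and -1.02 ± 0.34, each with no overlap (adjusted p = 0.325 and 0.477). Cdkn2b passed in the fit on only the 6 arrays of 0 h (0.0121). Over 33 proliferation genes the median was 0.03, and over 25 respiratory chain genes -0.02, with 0 past the threshold and 0 at an unadjusted p under 0.05 in both. Of 26 macrophage surface and identity genes Fcgr2b alone passed, and the list's median was -0.05.

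**Figure D4:**
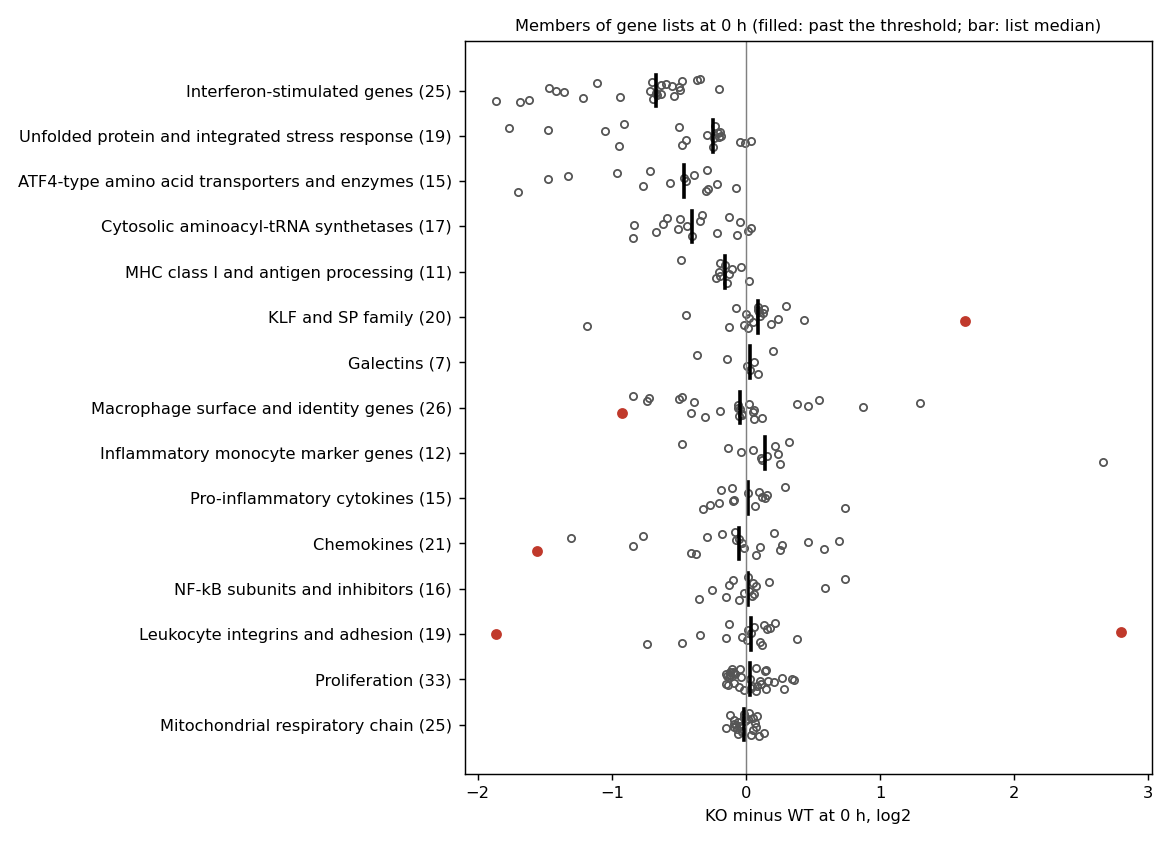
KO minus WT difference at 0 h (log2) of each measured member of 15 gene lists, with the number of members in parentheses. Circles are genes, filled where past the threshold, and bars are list medians. The interferon list lies wholly left of 0, and the filled points are Klf9, Fcgr2b, Ccl5, Itgb3 and Itgb7.

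The genes with the next lowest p among those lower in KO cells did not pass here. Beside Slc7a5, Mars1 and Ifit1 these were Mfng, a Notch-modifying glycosyltransferase gene (-1.02 ± 0.20, adjusted p = 0.0566), and Nktr, a cyclophilin-related gene (-0.92 ± 0.18, adjusted p = 0.0637). Asap2, an Arf GTPase-activating protein gene, read -1.05 ± 0.22, and Afap1l1, an actin-associated protein gene, -1.01 ± 0.21 (adjusted p = 0.0816 and 0.0787). Both passed when values under the nonspecific level were set to it (0.0124 and 0.00855), when arrays were only shifted to 1 median (0.0283 and 0.0279) and without normalisation (0.0308 and 0.0295). Bcl6b and Glt28d2 lay at or under the nonspecific level in all 6 arrays, and Mfng and Klhl23 did so in the KO arrays. Without WT array 3 Mfng and Nktr passed, at -1.20 and -1.08 (adjusted p = 0.0296 and 0.0308).

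The 24 genes were followed into the later arrays, which share no array with the 0 h comparison. Whether the samples share animals or cultures with it is not in the labels. Across all genes, the 0 h difference correlated with that after vehicle at r = 0.22 and with that after LPS at r = -0.005. After 8 h of vehicle 23 of 24 kept the sign of the 0 h difference and all 24 had a smaller size, and 0 passed (limma; 0 of all genes passed and 778, 4.55%, had an unadjusted p under 0.05). That count reads 1 probe set per gene. Over every probe set, Klf3 probe sets 1421604_PM_a_at, 1429360_PM_at and 1454666_PM_at passed after vehicle, at -4.21, -2.21 and -1.92 (limma, adjusted p = 0.000489, 0.000672 and 0.044). The remaining Klf3 probe sets read higher in KO cells and did not pass. Itgb7 and Fcna read 2.42 ± 0.44 and 2.13 ± 0.41 higher in KO cells after vehicle (adjusted p = 0.233 each), and Rap1gap2 1.93 ± 0.34 (adjusted p = 0.191). Ryr1, Pgap4 and Krt80 read only 0.30, 0.24 and 0.16. Cdhr3 had the opposite sign, at 0.08. No difference between the 0 h and the vehicle effect passed for any gene.

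After 8 h of LPS 14 of 24 kept the sign, and 4 passed (5.97% of all genes did, 2.82% higher and 3.15% lower in KO cells). Rap1gap2 at 2.35 ± 0.34, Cd109 at 1.41 ± 0.26 and Mmp8 at 0.69 ± 0.18 were again higher in KO cells (adjusted p = 0.000499, 0.00385 and 0.0331). Pirb passed with the opposite sign, at -0.45 ± 0.12 (adjusted p = 0.032). For 10 of 24 genes the 0 h effect differed from the LPS effect past the threshold (1.92% of all genes did), a count from which nothing is read, since the 0 h difference that chose the genes is a term of the contrast. The largest of these differences were 1.90 for Adgre5 and -1.85 for Itgb3, whose LPS effects were -0.06 and -0.01. The 24 genes were selected by their 0 h difference, so their smaller size elsewhere is a description.

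**Figure D5:**
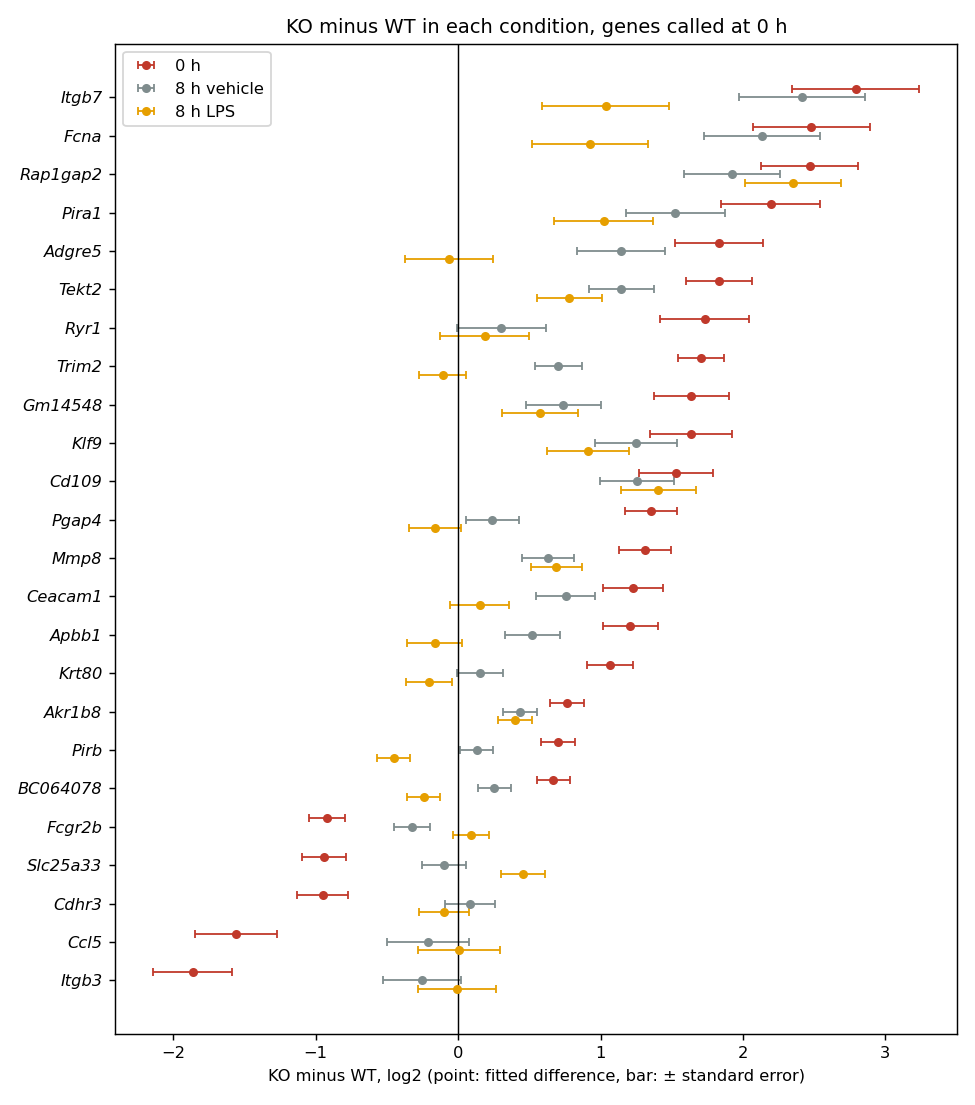
KO minus WT difference (log2, point ± standard error from the fit) of the 24 genes past the threshold at 0 h, at 0 h (red), after 8 h of vehicle (grey) and after 8 h of LPS (orange). Rap1gap2 and Cd109 lie near their 0 h value in all 3 conditions, while Ryr1, Pgap4, Krt80 and Itgb3 lie near 0 in both later ones.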

How the data were processed

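RNA of 18 samples was measured on Affymetrix HT MG-430 PM arrays, 1 array a sample and 3 in each of 6 groups. The deposited intensity of 45141 probe sets was exported from Partek, per the submitters' processing notes; the sources used here give no background correction, scaling, version or genome build of the probes. From the deposited intensities, log2 values were taken and quantile-normalised over the 18 arrays. A gene was read by its single-symbol probe set with the highest mean over all arrays, which gave 17097 genes, of which 7180 had several probe sets; 551 probe sets with several symbols and 15588 with none were not named. Differences are log2 KO minus WT.

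limma 3.58.1 in R 4.3.3 fitted 1 mean per group, with moderated standard errors, two-sided tests and Benjamini-Hochberg adjustment over all genes (for Klf3 probe sets, over every probe set) at 0.05. A group at or under the nonspecific level in every array had only a bound, given as at least N-fold against that level. On simulated data for KO minus WT at 0 h over 17097 genes, 77 of 100 genes changed by 1 log2 unit and 99 of 100 changed by 2 were called. The comparison, gene lists and alternatives were chosen with earlier results of these data known. Genes named were those past the threshold, the next by p among genes lower in KO cells, and members of the lists.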

Additional observations from a re-analysis of the deposited data

Results flagged for a closer look

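For 10 genes past the threshold at 0 h, the KO minus WT difference at 0 h was itself different from that after LPS (limma, contrast of the 2 differences, adjusted over all genes). Values are the 0 h difference minus the LPS difference, on the log2 scale, with all 3 KO arrays at 0 h on one side of all 3 WT arrays for each gene. The genes had been chosen by their 0 h difference, which is also a term of this contrast, so nothing is read from their number.

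Among genes higher in KO cells at 0 h, the value was 1.90 for Adgre5 (adjusted p = 0.0359), 1.82 for Trim2 (0.000679), 1.52 for Pgap4 (0.00627) and 1.37 for Apbb1 (0.0167). It was 1.27 for Krt80 and 0.91 for the noncoding RNA BC064078 (adjusted p = 0.00886 each). For Pirb it was 1.15 (adjusted p = 0.00175). All 7 of these genes had a difference below 0 after LPS, which itself passed for Pirb alone. Among genes lower in KO cells at 0 h it was -1.85 for Itgb3 (adjusted p = 0.02), -1.40 for Slc25a33 (0.0029) and -1.01 for Fcgr2b (0.00765). The WT arrays of Trim2 and Pgap4 and the KO arrays of Itgb3 at 0 h lay at or under the nonspecific level.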

How the results depend on the processing

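All 24 genes past the threshold kept their direction in each of the alternatives run, but the counts moved. In the fits with an array left out that direction was fixed, since the groups of these genes did not overlap. Genes higher and lower in KO cells numbered 19 and 5; they were 10 and 9 with the deposited values on the log2 scale only, where the median of all genes was -0.10, and 30 and 15 when values under the nonspecific level were set to it. With a plate row block on 6 arrays they were 12 and 1, and with array weights 55 and 55. Genes lower in KO cells were 9 with arrays shifted to the same median, 9 over every probe set and 8 with the mean of a gene's probe sets. Leaving out each array in turn gave 5 to 19 higher and 0 to 12 lower genes, 167 to 249 genes whose effect differed between 0 h and LPS, 0 between 0 h and vehicle, and -1.35 to -1.04 for Klf3. The effect differed between 0 h and LPS for 517 genes, against 328, when only genes above the nonspecific level were tested. Klf3 was -1.22 with array weights and passed then (adjusted p = 0.0461). A fit on only the 6 arrays of 0 h called 17 and 4, sharing 12 of the 24. Array weights also brought past the threshold C1qtnf12, Ppp1r15a, Il1rn, Cpt1a, Fpr2, Bcl6b, Glt28d2 and Klhl23 (adjusted p from 0.014 to 0.048). Mfng passed when every gene was read by the mean of its probe sets (0.0452), which left its own difference at -1.02. Nktr passed among genes above the nonspecific level (0.0456). The causes were not tested.

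Same-numbered KO and WT arrays deviated together with r = 0.07, 0.11 and 0.05, and those of the same plate column with r = -0.066, -0.003 and -0.045. The labels do not say whether the numbers pair the samples, and such small correlations among 3 arrays a group cannot decide it. With a replicate block 5 genes were higher and 0 lower (limma; 497 and 546 at an unadjusted p under 0.05), and 163 differed between 0 h and LPS. Normalisation with the control probe sets left out, chosen after seeing the data, gave 19 and 5. Differences near the nonspecific level are limited by array background.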

Other observations

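Other gene groups moved little between KO and WT cells at 0 h. Of 15 targets of NRF2, the factor of the oxidative stress response, 13 were negative with a median of -0.14, and of 21 glycolysis and HIF1 target genes 16 were negative with a median of -0.09; 0 of either list passed the threshold in limma (1 and 2 had an unadjusted p under 0.05). Over 22 lysosomal genes the median was -0.05 and over 18 cholesterol synthesis genes -0.06, with 0 past the threshold (1 and 0 at an unadjusted p under 0.05).

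A few single genes had separate groups without passing, and they were singled out after their values were seen. Cd34, a sialomucin gene of progenitor cells, had log2 intensities of 3.99, 3.49 and 3.80 in KO arrays, none above the nonspecific level, against 6.62, 5.56 and 4.73 in WT arrays (adjusted p = 0.329). Fpr2, a formyl peptide receptor gene, differed by -0.70 ± 0.15 (adjusted p = 0.123). Cpt1a, the gene of the carnitine transferase that admits fatty acids to mitochondria, read 0.47 ± 0.12 higher in KO cells (adjusted p = 0.22), and the NF-kB cofactor gene Bcl3 0.59 ± 0.16 (adjusted p = 0.308).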
